A study of Rattus norvegicus with 10 samples.

Results

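The genes described are 10 cytosolic glutathione S-transferases: Gstp1 of the pi class, Gsta2, Gsta3 and Gsta4 of the alpha class, Gstm1, Gstm2, Gstm3 and Gstm4 of the mu class, and Gstt1 and Gstt2 of the theta class. They were chosen by gene symbol, and all non-control array probes carrying those symbols were taken. This gave 13 probes of 41012 on the array, for 10 genes of the 13832 that could be named, with 2 probes each for Gstp1, Gsta2 and Gstt2. Liver RNA was measured on 1 whole-genome rat array per animal, in 5 rats given diethylnitrosamine and then thioacetamide (DEN/TAA) and in 5 control rats given vehicle only. All were male Wistar rats whose labels give an age of 23 weeks. DEN/TAA rats received a single 200 mg/kg dose of diethylnitrosamine, a DNA-alkylating liver carcinogen, into the peritoneum at 6 weeks of age. Starting 2 weeks after that dose, the same rats were given 200 mg/kg thioacetamide, which is activated in hepatocytes and causes scarring, in cycles of 3 weeks with and 1 week without. The labels give the whole course as 23 weeks, which goes beyond an age of 23 weeks if it began at 6 weeks, so its duration is not settled here. Whole liver tissue was extracted, so fewer cells of a type and less RNA per cell cannot be told apart.

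Glutathione S-transferases join the tripeptide glutathione to reactive, electron-poor compounds, among them carcinogens activated in the liver and the breakdown products of oxidised lipids. The conjugates are pumped out of the cell and trimmed to mercapturates for excretion. In normal rat liver the alpha and mu classes are the main forms in hepatocytes, whereas the pi-class enzyme Gstp1, also called the placental form, is scarce there and is a long-used marker of carcinogen-altered hepatocyte foci.

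The promoters of the neighbouring pi-class genes Gstp1 and Gstp3 are shown because these 2 genes went in opposite directions. Each sequence is from RefSeq on the rat assembly GRCr8, written 5′ to 3′ on the gene's strand, and runs from 250 bases before to 50 after the gene's start. Capitals in Gstp1 mark the only matches to the letters searched, which were TGANTCA (AP-1 element) and TGACNNNGC (core of the antioxidant response element), each on both strands.
Gstp1 (chr1:210769656-210769955, minus strand): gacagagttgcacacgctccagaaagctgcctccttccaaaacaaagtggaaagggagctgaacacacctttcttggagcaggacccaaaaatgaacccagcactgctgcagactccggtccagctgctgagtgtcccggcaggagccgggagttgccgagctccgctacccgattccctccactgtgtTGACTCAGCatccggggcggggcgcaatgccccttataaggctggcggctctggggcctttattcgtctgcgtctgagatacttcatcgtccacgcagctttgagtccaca
Gstp3 (chr1:210787635-210787934, minus strand): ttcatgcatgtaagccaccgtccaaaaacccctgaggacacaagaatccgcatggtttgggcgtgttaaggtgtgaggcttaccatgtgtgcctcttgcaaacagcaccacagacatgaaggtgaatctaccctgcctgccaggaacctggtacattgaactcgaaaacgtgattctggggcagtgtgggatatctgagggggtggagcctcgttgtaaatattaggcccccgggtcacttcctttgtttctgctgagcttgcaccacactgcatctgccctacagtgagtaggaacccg
In Gstp1 the AP-1 letters TGACTCA lay at positions -61 to -55 from the start and the antioxidant core TGACTCAGC at -61 to -53, so the 2 matches overlap. Gstp3 held neither motif in this window. Among the 8 of the 10 genes with a promoter entry, 1 held the AP-1 letters (Gstp1) and 3 held the antioxidant core (Gstp1, Gsta2 and Gsta3). The Gsta2 match lay after the start, at positions 37 to 45. Gsta3 had more than 1 promoter entry, and not every entry held the core. Outside the 10, the antioxidant core was also in Gstm7, which was lower in DEN/TAA, and in Gsta1, which was not shown to differ. Gstm5 held the letters of both motifs. Whether a motif goes with the direction of change was not tested. Of all 33469 rat promoters of the same length, 7.33% held the AP-1 letters, 12.1% the antioxidant core and 1.14% both. These matches are letters in a sequence, and binding was not measured.

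Values below are scaled log2 signals: the log2 of the background-subtracted spot signal minus the array's 75th percentile, so 0 is the 75th percentile and a difference of 1 is a doubling. The DEN/TAA arrays were brighter than the control arrays. Of all spots, the share well above background was 40.6% ± 4.42 in DEN/TAA and 25.5% ± 6.21 in control (SD, n = 5 each), and that of control replicate 5 was lowest at 16.5%. After scaling, the median probe still differed by 0.33 on the log2 scale, and the median SD over probes was 0.28 in DEN/TAA and 0.43 in control. Every difference is DEN/TAA minus control, and can be read against that median of 0.33. Called means an adjusted p under 0.05 in limma, with Benjamini-Hochberg adjustment over the 14276 probes that passed the brightness filter.

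All 13 probes passed the filter, and 10 of them were well above background on all 10 arrays. Of the 13, 10 were higher in DEN/TAA, 1 was lower and 2 were not called. Over all probes tested, 35.5% were higher and 13.7% were lower, 49.2% in all. The groups did not overlap for 9 of the 13 probes, against 34.5% of all probes tested. By gene, using for each its brightest passing probe, 8 of the 10 genes rose (37.5% of all genes), 1 fell (15.8% of all genes) and 1 was not called, and 8 did not overlap between the groups (39.5% of all genes). Over all genes tested, 53.3% were called in either direction. The median difference over the 10 genes was 1.10, beside 0.33 over all genes. The change was thus led by a rise of Gstp1 far above that of the alpha and mu forms, with Gstm2 the only member that fell. The 10 genes were chosen with earlier results of these data known, so their counts and median describe these genes and not the family. Of the 10 other family genes tested, 3 rose and 5 fell, with a median of -0.45. Among the 3 that rose, 2 were above background on no control array.

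**Figure D1:**
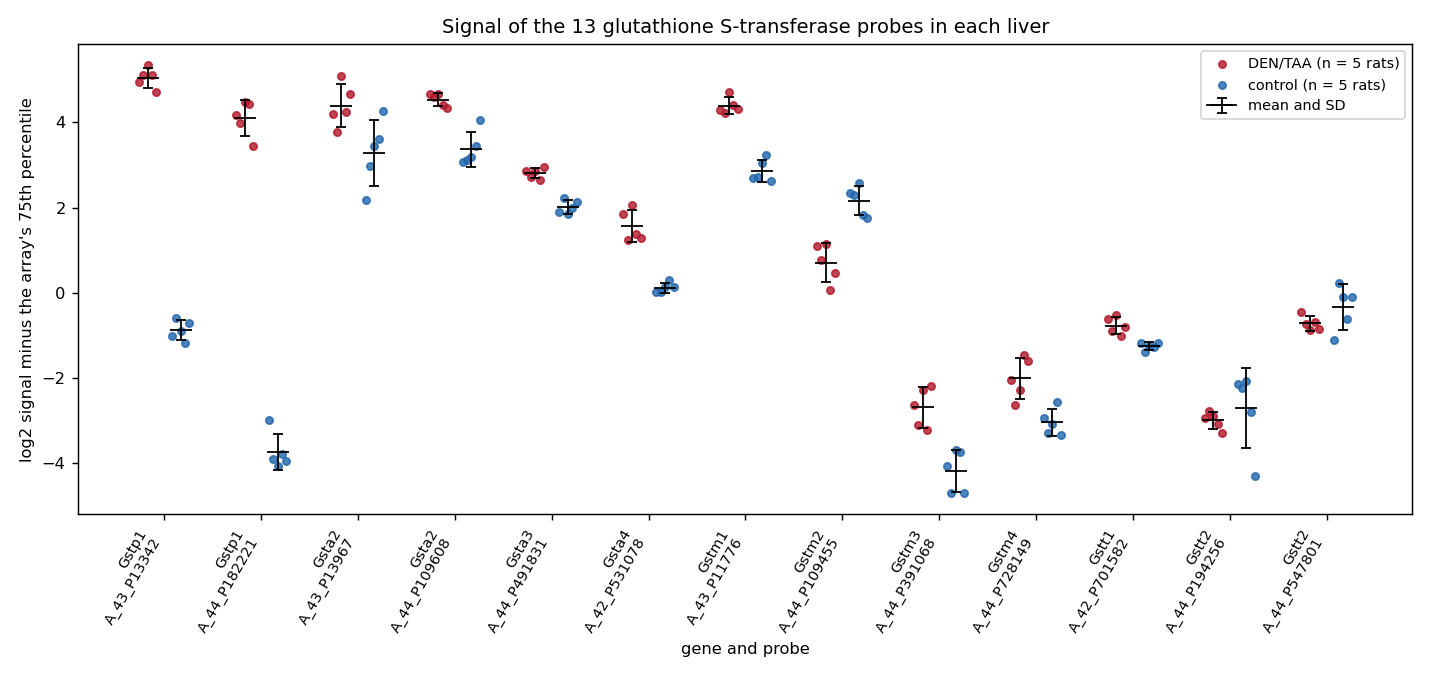
Scaled log2 signal (vertical axis, relative to each array's 75th percentile) of the 13 probes, with 1 point per rat, DEN/TAA in red left of control in blue, and bars for the mean and SD (n = 5 each). The Gstp1 probes are separated by several log2 units, the means of the alpha and mu genes by 0.79 to 1.52 units, with Gstm2 alone called lower in DEN/TAA, and both Gstt2 probes overlap.

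Gstp1 had scaled log2 signals of 4.94, 5.12, 5.34, 5.11 and 4.71 in the 5 DEN/TAA livers, against -1.0, -0.59, -0.90, -1.18 and -0.72 in the 5 control livers, on the probe A_43_P13342. Every DEN/TAA liver lay more than 5 units above every control liver, and no liver of either group stood between. The spread between rats was alike, with an SD of 0.23 in DEN/TAA and 0.23 in control. The difference was 5.92 (SE 0.17, 95% confidence interval 5.54 to 6.30), or 60.6-fold, with a limma adjusted p of 3.92e-09. It stood 15th from the top among the 14276 probes tested. Before scaling, the processed spot signal of this probe ran from 139660 to 202175 in DEN/TAA and from 466 to 1569 in control. The arrays lay on 3 slides, each holding rats of both groups, and within slides the difference was 5.65 to 6.13.

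The other Gstp1 probe, A_44_P182221, had 4.17, 3.98, 4.47, 4.42 and 3.44 in DEN/TAA livers, against -2.99, -3.89, -4.05, -3.79 and -3.95 in control livers. The groups were again far apart, and control replicate 1 stood above the other controls. The difference was 7.83 (SE 0.25), or 228-fold, with a limma adjusted p of 7.88e-09, and 7.31 to 8.50 within slides. This probe was well above background on 4 of 5 control arrays. With the undetected control array raised to the lowest signal detected on it, the difference was 7.79. The 2 probes of Gstp1 therefore gave rises that differed by 1.91 on the log2 scale. The first minus the second probe was 0.69 to 1.27 in DEN/TAA and 1.99 to 3.31 in control, without overlap, so the size of the rise depends on the probe while its direction does not.

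The alpha-class genes all rose. Gsta4, whose enzyme clears 4-hydroxynonenal and related products of lipid peroxidation, had 1.84, 1.25, 2.07, 1.37 and 1.29 in DEN/TAA livers, against 0.016, 0.0095, 0.14, 0.30 and 0.15 in control livers. The controls lay within a narrow band that no DEN/TAA liver reached. The difference was 1.44 (SE 0.19), or 2.72-fold, with a limma adjusted p of 0.000106. Gsta3, another alpha-class form, which in mouse detoxifies the aflatoxin epoxide, had 2.87, 2.73, 2.85, 2.64 and 2.96 in DEN/TAA livers, against 1.90, 2.23, 1.84, 1.99 and 2.13 in control livers. The groups did not overlap, and the rise was the smallest of these alpha-class genes at 0.79 (SE 0.15), or 1.73-fold, with a limma adjusted p of 0.00101.

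Gsta2, a main alpha-class subunit of rat hepatocytes, had 4.67, 4.59, 4.67, 4.40 and 4.35 in DEN/TAA livers, against 3.06, 3.12, 3.18, 3.44 and 4.05 in control livers, on the probe A_44_P109608. The groups did not overlap, but control replicate 5 came within reach of the DEN/TAA livers. The difference was 1.17 (SE 0.20), or 2.24-fold, with a limma adjusted p of 0.000727, and 0.60 to 1.54 within slides. The probe A_43_P13967 gave a like difference of 1.10 (SE 0.36, limma adjusted p = 0.0257) with a wider spread, at 3.77 to 5.09 in DEN/TAA and 2.17 to 4.26 in control, and there the groups overlapped. This second call was lost without DEN/TAA replicate 3 (0.93), without control replicate 2 (1.02) and with the percentile taken over all probes (0.80).

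The mu-class genes split. Gstm1, a main mu-class subunit of rat liver, had 4.29, 4.21, 4.72, 4.41 and 4.32 in DEN/TAA livers, against 2.70, 2.72, 3.05, 3.23 and 2.62 in control livers. All DEN/TAA livers lay well above the highest control. The difference was 1.52 (SE 0.17), or 2.88-fold, with a limma adjusted p of 4.06e-05.

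Gstm2, a mu-class subunit that pairs with Gstm1 in dimers, had 1.10, 0.78, 1.14, 0.059 and 0.47 in DEN/TAA livers, against 2.35, 2.30, 2.58, 1.84 and 1.77 in control livers. Every DEN/TAA liver was below every control liver. The difference was -1.45 (SE 0.25, 95% confidence interval -1.99 to -0.91), a ratio of 0.365, with a limma adjusted p of 0.000579. It was -1.98 to -1.33 within slides. Among the 10 genes it was the only one called lower.

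Gstm3 and Gstm4, mu-class members encoded beside Gstm1 and Gstm2, were dim. Gstm3 had -2.63, -3.11, -2.27, -3.23 and -2.19 in DEN/TAA livers, against -4.07, -4.69, -3.70, -3.72 and -4.69 in control livers, of which 4 of 5 were well above background. The difference was 1.49 (SE 0.28), or 2.81-fold, with a limma adjusted p of 0.00122 and no overlap. Gstm4 had -2.05, -2.63, -2.29, -1.46 and -1.59 in DEN/TAA livers, against -2.94, -3.29, -3.07, -2.55 and -3.35 in control livers. Here the lowest DEN/TAA liver lay just under the highest control, and the difference was 1.03 (SE 0.25), or 2.05-fold, with a limma adjusted p of 0.00501. Both calls were lost with normexp background correction, where the differences were 0.59 for Gstm3 and 0.56 for Gstm4 while the median probe differed by -0.38.

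The theta-class genes changed least. Gstt1, which acts on small halogenated compounds, had -0.62, -0.90, -0.52, -1.01 and -0.81 in DEN/TAA livers, against -1.18, -1.38, -1.24, -1.28 and -1.17 in control livers. The groups did not overlap, yet the difference of 0.48 (SE 0.15), or 1.39-fold, with a limma adjusted p of 0.0194, was only 0.15 above that of the median probe. It was called in 2 of the 6 scalings compared, and the call was lost without DEN/TAA replicate 1 (0.44) or replicate 3 (0.42).

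Gstt2, the theta form known for acting on sulfate esters, had -0.45, -0.74, -0.87, -0.68 and -0.85 in DEN/TAA livers, against -1.11, 0.24, -0.087, -0.61 and -0.099 in control livers, on the probe A_44_P547801. The control livers were spread on both sides of the DEN/TAA livers. The difference was -0.39 (SE 0.24, 95% confidence interval -0.91 to 0.14) and was not called (limma adjusted p = 0.208). The probe A_44_P194256 gave -0.29 (SE 0.38, limma adjusted p = 0.552), with 4 of 5 control arrays above background. With spike-in scaling the differences of both Gstt2 probes turned positive, at 0.27 and 0.37, where the median probe differed by 0.99. The first probe was called lower without control replicate 1 (-0.58), and the second without control replicate 5 (-0.69), which was its lowest control and below background.

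**Figure D2:**
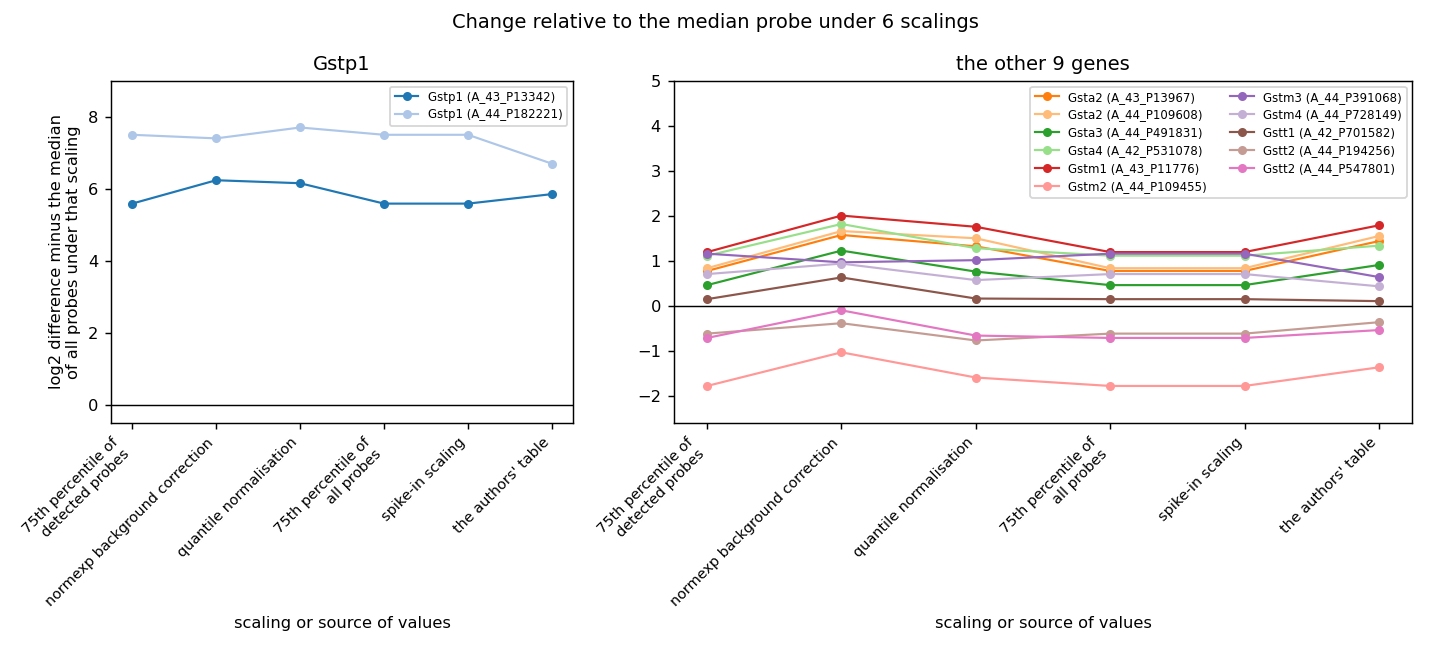
Log2 difference, DEN/TAA minus control, of each member probe after subtracting the median difference of all probes (vertical axis), under 6 scalings or sources of values (horizontal axis), with Gstp1 left and the other 9 genes right. Gstp1 stays above 5 units, Gstm2 and both Gstt2 probes stay below 0, and the other probes stay above 0 under all 6.

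Whether 2 genes changed unequally can be asked within each array, where the array's scaling cancels. The difference between the log2 values of 2 genes was compared between the groups for all 45 pairs, with a two-sided exact permutation test over the 252 ways of assigning 5 of the 10 arrays. The smallest p this allows is 0.00794, which became 0.0137 after adjustment over the 45 pairs. Of the 45 pairs, 30 had an adjusted p under 0.05, and 26 showed no overlap between the groups. How many pairs of other genes would do so was not tested, and 53.3% of all genes were called singly. None of the 45 was called with slide as a block (smallest adjusted p = 0.0595 by exact permutation within slides) or without the 2 dimmest control arrays (0.0536), which leave fewer assignments. In these, 28 and 30 pairs had an unadjusted exact p under 0.05, and all 30 called pairs kept their sign.

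Gstp1 exceeded each of the other 9 genes, by 4.40 over Gstm1 at the least and by 7.37 over Gstm2 at the most (9 of 9 pairs, exact permutation, adjusted p = 0.0137 in each). Within slides its excess over another gene was between 3.63 and 8.10. Gstm2 differed from all 9 other genes, including Gstt2, from which it differed by -1.07 (exact permutation, adjusted p = 0.0255). Among the 7 other genes that rose, only 6 of 21 pairs were called, and the sizes of all 21 ran from 0.035 to 1.05. Of those 6, 4 set Gstt1 below Gsta2, Gsta4, Gstm1 or Gstm3, with 1.05 for Gstm1 over Gstt1 as the largest. The other 2 set Gsta3 below Gsta4 by 0.65 and below Gstm1 by 0.73 (exact permutation, adjusted p = 0.0137 each). Gstm1 and Gstm3 differed by 0.035 and Gsta4 and Gstm1 by -0.080, neither called (exact permutation, adjusted p = 0.881 and 0.595). Gstt1 exceeded Gstt2 by 0.86 (exact permutation, adjusted p = 0.0476).

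**Figure D3:**
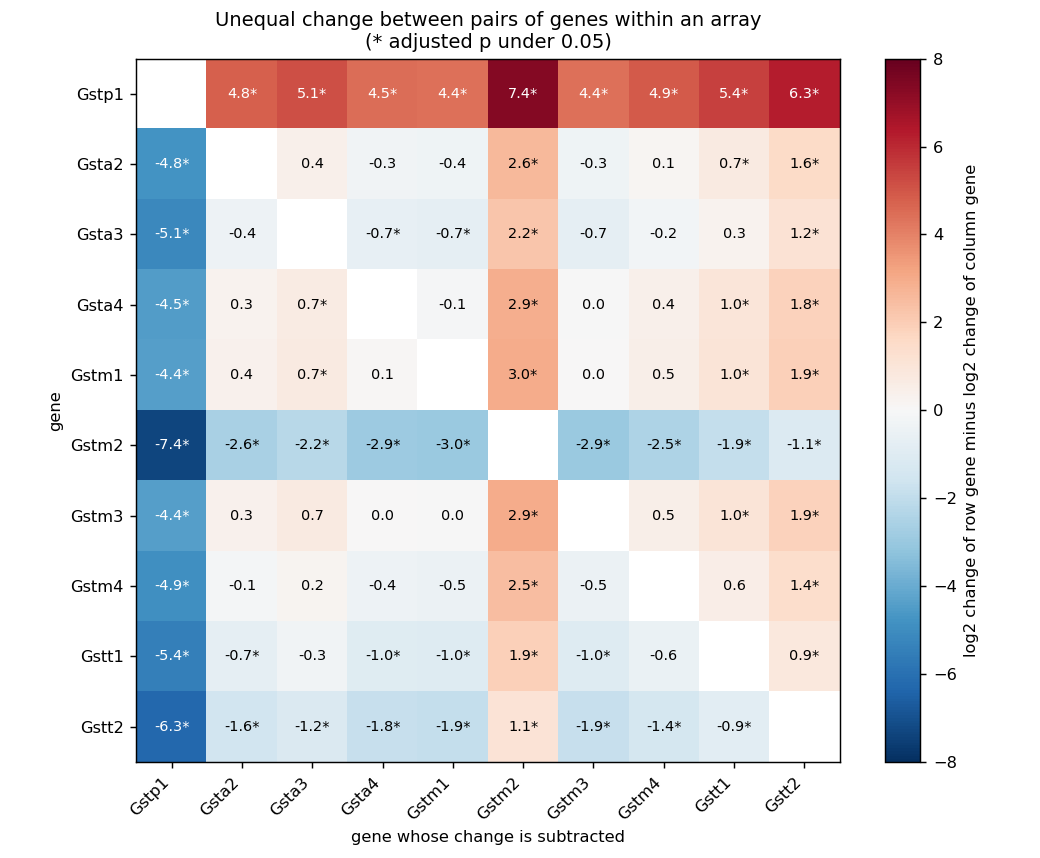
Unequal change between the 45 pairs of genes: each cell is the log2 change (DEN/TAA minus control) of the row gene minus that of the column gene, in colour and as a number, and a star marks an adjusted p under 0.05 over all 252 assignments (0 pairs with slide as a block). The Gstp1 and Gstm2 rows and columns are starred throughout, whereas most cells among the alpha and mu genes that rose carry no star.

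Some genes of the family that lie side by side in the genome moved in opposite directions. Whether a probe also reads a near-identical neighbour was not tested. On chromosome 1 of GRCr8, Gstp3 is the next gene to Gstp1, with no gene between them. Gstp3 had 0.17, 0.17, -0.089, 0.10 and 1.36 in DEN/TAA livers, against 4.10, 3.88, 3.68, 3.18 and 3.43 in control livers. No DEN/TAA liver came near a control, and DEN/TAA replicate 5 stood above the other 4. The difference was -3.31 (SE 0.28), a ratio of 0.101, with a limma adjusted p of 5.44e-06. On chromosome 2 the mu-class genes follow in the order Gstm5, Gstm6l, Gstm7, Gstm6, Gstm3l1, Gstm3, Gstm2, Gstm1 and Gstm4. Gstm2 lies directly between Gstm3 and Gstm1, both of which rose. Gstm7 had -3.95, -4.53, -3.03, -3.84 and -3.46 in DEN/TAA livers, against 0.53, 0.71, 0.13, -0.91 and -0.26 in control livers. It was lower in every DEN/TAA liver than in any control, by -3.80 (SE 0.34), a ratio of 0.0717, with a limma adjusted p of 7.47e-06. Gsta2 and Gsta4 lie near each other on chromosome 8, Gsta3 and Gsta1 on chromosome 9, and Gstt2 and Gstt1 on chromosome 20.

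Of 21 other glutathione transferase genes listed, 14 had a named probe and 10 were tested, of which 3 rose, 5 fell and 2 were not called. Their median difference was -0.45, beside 0.33 over all genes, of which 37.5% were higher and 15.8% lower. Besides Gstp3 and Gstm7, those that fell were the membrane-bound Mgst3 at -1.16 and Mgst1 at -0.60, and the kappa-class Gstk1 at -1.11 (limma adjusted p = 0.000661, 0.0184 and 0.00144). The Mgst1 call was lost in most scalings, with normexp (-0.53), quantile normalisation (-0.38), spike-in scaling (0.060) and in the authors' deposited table (-0.28), and also with no filter, without the 2 dimmest control arrays (-0.58) and without DEN/TAA replicate 4 (-0.53). Mgst2 rose by 1.05. On the scaled signals defined above, Gstm5 was at least 1.26-fold and Hpgds, the sigma-class prostaglandin D synthase, at least 1.60-fold higher. Both were detected in all 5 DEN/TAA livers but in no control liver. Of the 3 that rose, these 2 thus passed the filter through the DEN/TAA arrays alone. Their bounds hold for that processing only. Neither was kept with normexp, nor was that of Hpgds on the authors' deposited values, as given below. Gsta1 differed by -0.31 and Gsto1 by -0.19, neither called (limma adjusted p = 0.118 and 0.475). With spike-in scaling the calls of Mgst3 (-0.50) and Gstk1 (-0.45) were lost, and with normexp Gstm5 differed by -0.00374 and Hpgds by -0.28. On the authors' deposited log2 values, Gstm5 differed by 0.45 and Hpgds by 0.25, and Gstm7 by -2.71.

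**Figure D4:**
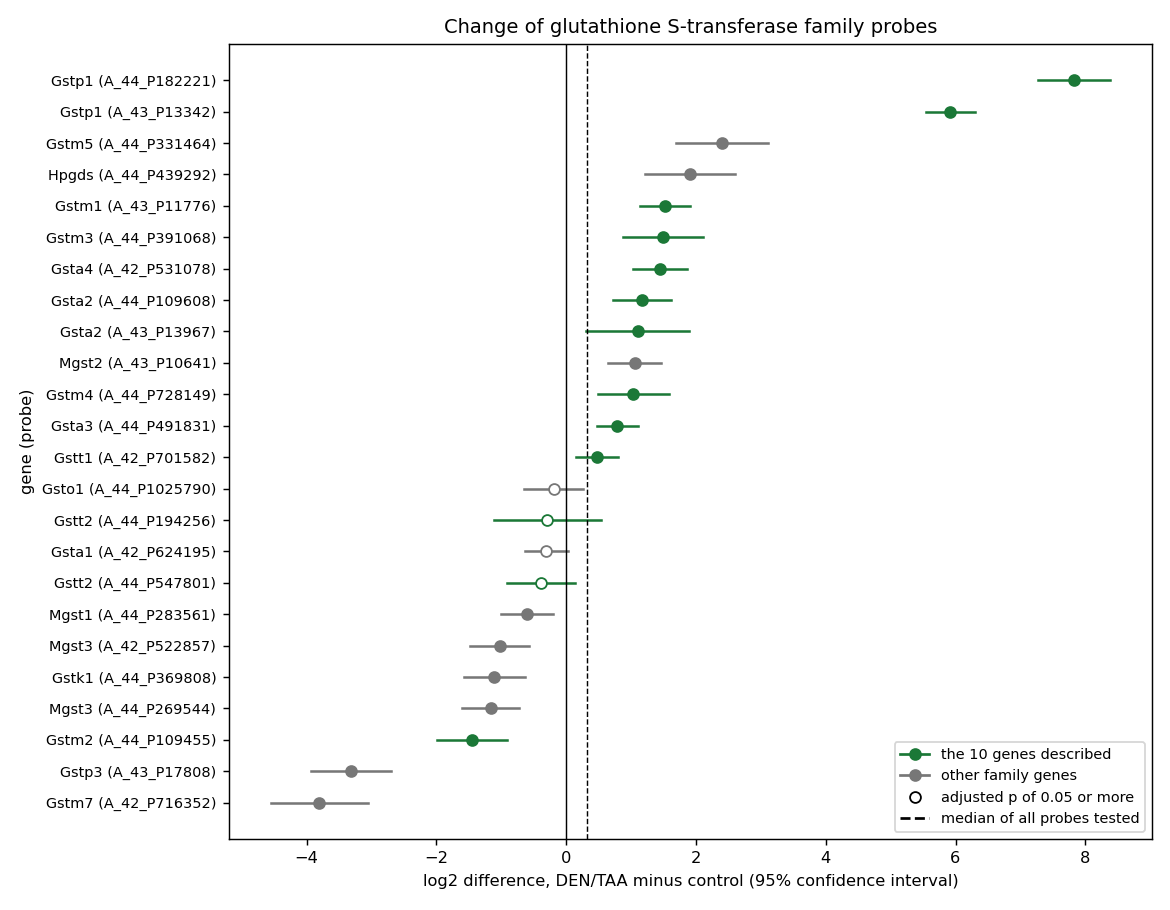
Log2 difference, DEN/TAA minus control (horizontal axis, with 95% confidence interval), of the probes of the 10 genes in green and of other family genes in grey, with open points where the adjusted p is 0.05 or more and a dashed line at the median of all probes. Gstp1 stands alone on the right and Gstm7 and Gstp3 on the left, and the points of Gstm5 and Hpgds are measured differences whose control arrays were below background.

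Genes that act after conjugation were described from a list of 20, of which 19 had a named probe and 13 were tested. Of the 13, 7 rose, 5 fell and 1 was not called, with a median of 0.77 beside 0.33 over all genes. The shares over all genes were 37.5% higher and 15.8% lower. Among the 7, Ggt1, Abcc1, Abcc3 and Abcc4 were above background on no control array, so they passed the filter through the DEN/TAA arrays alone. For Abcc4 no rise was left once undetected control arrays were raised to their lowest detected signal. Ggt1, the gamma-glutamyl transpeptidase that takes the first step from conjugate to mercapturate and like Gstp1 marks altered foci in rat liver, was at least 16.1-fold higher (limma adjusted p = 5.32e-07). It was -1.32 to -0.78 in DEN/TAA livers, whereas no control array was above background. The conjugate exporters Abcc3 and Abcc1 were at least 6.33-fold and 4.43-fold higher, again on no control array, and the dimmer Abcc3 probe A_44_P221974 gave a bound of only 1.80-fold. These bounds hold for the background-subtracted signal scaled to the 75th percentile. The measured log2 differences were smaller with normexp, at 3.02 for Ggt1 and 1.57 for Abcc3, and on the authors' deposited log2 values, at 2.55 for Ggt1, 1.35 for Abcc3 and 1.01 for Abcc1, so the sizes of these rises depend on the processing. The later enzymes Nat8, which acetylates the cysteine conjugate, Anpep, an aminopeptidase, and Acy3, an acylase of mercapturates, fell by 1.75, 1.11 and 1.50 on the log2 scale (limma adjusted p = 0.00267, 0.00151 and 0.000549). The calls of Anpep (-0.45) and Acy3 (-0.84) were lost with spike-in scaling, and that of Abcc1 (0.94) with normexp.

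Of 18 transcription regulators of glutathione transferase genes listed, 15 had a named probe and 12 were tested. Of the 12, 3 passed the test as higher, 3 fell and 6 were not called, with a median of -0.18 beside 0.33 over all genes. Among all genes 37.5% were higher and 15.8% lower, 53.3% in either direction, so the regulators were called about as often as genes in general. Nfe2l2, which encodes the factor NRF2 that binds the antioxidant response element, differed by 0.48 (SE 0.37, limma adjusted p = 0.302), with values of -0.85 to 0.42 in DEN/TAA and -2.10 to -0.17 in control. Its partner Mafg rose by 0.97 and the repressor Bach1, detected on 1 of 5 control arrays, by 1.75, and both calls were lost with normexp (0.54 and 0.014). Mafk was the third that passed as higher, but it was detected on no control array and no fold is given. Its call was lost with the percentile over all probes (0.53, limma adjusted p = 0.113) and on the authors' deposited values (0.000972, limma adjusted p = 0.994), and with normexp it was lower (-0.85, limma adjusted p = 0.0461). Cebpa, a hepatocyte factor, the glucocorticoid receptor Nr3c1 and the xenobiotic receptor Nr1i2 fell by 1.75, 1.07 and 1.02 on the log2 scale, and Cebpa differed by -0.65 on the authors' deposited values. With spike-in scaling Nr3c1 (-0.41) and Nr1i2 (-0.36) were not called and Nfe2l2 was called at 1.14. These are RNA levels, and the activity of the factors was not measured.

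The genes most like Gstp1 over the 10 arrays were Dynlt1 (Pearson's r 0.998), Car2 (0.996), Tceal9 (0.995), Txnrd1 (0.995) and Mgp (0.994). Those most opposite were Stac3 (-0.997), Plekhb1 (-0.991), F9, Itih1 and F2 (-0.990 each). Car2, carbonic anhydrase 2, rose by 5.81 and Txnrd1, thioredoxin reductase 1, by 3.39, whereas the clotting factor genes F9 and F2 fell by 1.53 and 1.30 on the log2 scale. Because Gstp1 separates the groups, any gene that differs between them with little spread has an r near 1 or -1. Of 6838 genes compared, 418 had an r above 0.95 and 180 below -0.95, so these names are a description of the 10 arrays.

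Markers of liver cell types also differed between the groups, in directions that depended on the cell type. The counts below can be read beside all genes tested, of which 37.5% were higher and 15.8% lower, with a median of 0.33. Of 8 hepatocyte markers, 7 fell and 0 rose (median -0.90). Their summed scaled signal was 197 to 246 in DEN/TAA livers and 379 to 600 in control livers, in units of the 75th percentile. All 8 passed the brightness filter. Apob counts as lower by its brightest probe (-0.76), whereas its other probes, at -0.52 to 0.049, were not called. Of 5 biliary markers tested, 4 rose (median 2.66), with a summed signal of 0.647 to 1.19 in DEN/TAA and 0.113 to 0.175 in control. Of these, Krt19, Cldn4 and Spp1 were above background on no control array, so they passed the filter through the DEN/TAA arrays alone. The other Cldn4 probe, A_44_P299550, differed by 0.35 and was not called (limma adjusted p = 0.377). Cftr was above background nowhere. Of 7 stellate and myofibroblast markers 6 rose (median 1.82), with sums of 3.39 to 5.40 in DEN/TAA and 0.855 to 1.17 in control. Of 8 macrophage markers 6 rose and 1 fell (median 1.12), with sums of 6.77 to 9.51 in DEN/TAA and 2.79 to 4.95 in control. Cd163, counted among the 6, was above background on no control array, no fold is given for it, and within slides it differed by -0.094 to 1.57. Fewer were tested of the endothelial (3, of which 1 rose), lymphocyte (3, of which 2 rose) and erythroid lists (3, of which 2 rose). The 2 lymphocyte genes that rose, Cd3g and Zap70, were above background on no control array. They too passed the filter through the DEN/TAA arrays alone. The part of these markers in the changes of Gstp1, Gstm2 and the other members was not tested.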

How the data were processed

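Liver RNA (150 ng per array) was labelled with Cy3 on 4x44K Agilent rat arrays, 1 array per rat. The deposited scanner files hold spot intensity from which background had been subtracted on each array, per the file headers. These name Agilent Feature Extraction 11.5.1.1, and the submitters' processing notes name 15.5. A second deposited table holds the authors' log2 values, with column medians of 8.592 to 8.594 and the rank order of each array's raw median signal (Spearman's rho of 1). The normalisation behind it is not given in the sources, and its direction is known from its columns.

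Control spots and spots with an outlier flag were left out, repeated spots of a probe were averaged on the log2 scale, and the 75th percentile of the array, over the 6228 probes well above background on all 10 arrays, was subtracted. Probes well above background on at least 5 arrays were tested. No spot was saturated. Of 41012 probes, 17502 had 1 gene symbol, 0 several and 23510 none, through RefSeq accessions matched to GRCr8. Array probe sequences were not used here, so whether a probe also reads a near-identical family member was not tested. No genome coordinates are given beside those of the promoters, since the array was annotated on another build.

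The groups were compared in limma 3.58.1 (R 4.3.3, lmFit and eBayes, two-sided) on all 10 arrays without covariates, after a test of the procedure on simulated data. Pairs of genes were compared with SciPy 1.17.1. For a probe detected in no rat of a group, the fold is a bound (at least N-fold), taken against that group's mean after each of its arrays was raised to the lowest detected signal where the probe lay under it. The number of arrays limits the precision. The labels number the animals within each group, so each array was taken as 1 rat, and p-values measure the spread between these rats.

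The members and gene lists were chosen with earlier results of these data known. Outside the members, the rule for named genes was up to 3 called genes per list and direction with the smallest adjusted p, Gsto1, Gstk1, Mgst1, Ggt1, Abcc3 and Nfe2l2 whatever their result (Gsta5 was also listed but not tested), and the 5 genes most and least correlated with Gstp1. Gsta1 was named after its values were seen. Alternatives were normexp (offset 50, on the median spot signal, since the mean signal that had been planned is not used here), quantile normalisation, the percentile over all probes, scaling to the 5 brightest spike-in probes, the authors' log2 table, other filters, slide and replicate blocks, a trended robust prior, array weights, gene-level fits, and leaving out rats.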

Additional observations from a re-analysis of the deposited data

Results flagged for a closer look

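Among the 35 probes examined in each group (70 groups of 5 rats), 7 had a rat far from the other 4 by Dixon's test, whereas chance gives about 1 in 20 groups. The Gstp1 probe A_44_P182221 was at -2.99 in control replicate 1, against -4.05 to -3.79 in the other controls. The neighbouring gene Gstp3 was at 1.36 in DEN/TAA replicate 5, against -0.089 to 0.17 in the other DEN/TAA livers, and all 5 stayed below every control. Acy3 was at -0.062 in control replicate 5 (others 0.80 to 1.11), and Anpep at -0.88 in control replicate 4 (others -1.81 to -1.56). Bach1 was at -5.40 in DEN/TAA replicate 5 (others -3.91 to -3.85) and at -7.55 in control replicate 4 (others -5.93 to -5.38). Cebpa was at -5.00 in control replicate 5 (others -3.72 to -3.29).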

How the results depend on the processing

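Scaling and brightness limit the counts over all probes more than those of the members. Probes called higher and lower numbered 5063 and 1955, against 1502 and 4166 with normexp, 3552 and 2392 with quantile normalisation, 2930 and 2898 when the percentile was taken over all probes, 9019 and 650 after spike-in scaling, and 3807 and 2276 in the authors' table. The median probe differed by 0.33, against -0.38, 0.19, 0.021, 0.99 and 0.077 under those 5. A filter on all 10 arrays left 2065 higher, and no filter gave 20416 lower, with 41012 probes tested. Leaving out 1 rat gave 4276 to 5147 higher and 1682 to 2002 lower. The cause of these shifts was not tested.

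Over the 6 scalings Gstp1 differed by 5.61 to 6.58 and 6.78 to 8.49 on its 2 probes, Gsta2 (A_44_P109608) by 0.86 to 1.82, Gsta3 by 0.48 to 1.45, Gsta4 by 1.14 to 2.10, Gstm1 by 1.22 to 2.18 and Gstm2 by -1.76 to -0.79, all called in each. Of the results of single member probes under alternatives, 286 were unchanged, 12 lost the call, 5 gained it and 0 of the called ones reversed. Unchanged means that a called result kept its direction and call, or that an uncalled result stayed uncalled whatever its sign. The 286 thus include both Gstt2 probes with spike-in scaling, which turned positive (0.37 and 0.27) without being called. Member genes called higher numbered 5 with normexp instead of 8. Member probes called lower were 2 instead of 1 with normexp, with the percentile of all probes and without the 2 dimmest control arrays, and 1 to 2 when 1 rat was left out, the added one being a Gstt2 probe. Member genes called lower were 2 with the percentile over all probes and 1 to 2 when 1 rat was left out (2 without control replicate 1). Gstt1 differed by 0.25 with normexp, 0.36 with quantile normalisation, 0.17 with the percentile over all probes and 0.18 in the authors' table, none of them called.

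Of other named genes, 498 results were unchanged in the same sense, 17 lost the call, 1 gained it and 4 reversed: Gstm5 at -0.00374, Hpgds at -0.28 and Mafk at -0.85 with normexp, and Mgst1 at 0.060 with spike-in scaling. The 498 include Gsto1, which was not called and turned from -0.19 to 0.47 with spike-in scaling.

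Of 45 pairs, 30 were called, and 26 to 30 when 1 rat was left out. With slide as a block 0 were called (28 had an unadjusted exact p under 0.05, the smallest adjusted p being 0.0595), and without the 2 dimmest control arrays 0 were called (30 under 0.05, smallest adjusted 0.0536). Both leave fewer assignments to permute. All 30 kept their sign in each setting run.

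With the replicate block, 5059 probes were higher and 1935 lower, and the call of no named probe changed. The labels give both groups numbers 1 to 5, and the deviations of same-numbered rats correlated at 0.12, 0.11, 0.32, -0.23 and 0.12. Numbers 1, 2, 3 and 5 also lay on the same slide in both groups, whereas the rats numbered 4 lay on slides 2 and 3. Since the labels give no shared source and 1 correlation was below 0, the numbers were not taken to pair the rats, and slide as a block gave 5410 higher and 2180 lower. A block over pairs of rats was not run for the pairs of genes, since its smallest p of 0.0625 could not pass.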
